A study of Mus musculus with 8 samples.

Results

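The comparison described here sets the MaSC-enriched control cells of the mouse mammary gland against the luminal progenitor (LP) enriched control cells, over all genes. Each difference uses 4 of the 8 arrays of the series, 2 for each fraction. The other 4 arrays hold the same fractions treated with IFNα, and they enter the fit that gives the spread behind every p-value. The cells were taken from mammary glands of virgin FVB/N-J mice of wild type and kept as mammospheres, floating cultures without a matrix to attach to. The labels call the MaSC fraction P4 and the LP fraction P5, and the IFNα groups received 1000 U/ml. All samples carry the same protocol text, with harvest after 8 days. The animals or cultures behind each replicate are not given, so p-values measure the spread between these arrays, which may be technical. RNA of each sample was labelled with Cy5 and hybridised on a two-colour Agilent array against a commercial universal reference of pooled mouse cell line RNA, labelled with Cy3. A value is therefore read as the log2 ratio of sample to reference; this direction is taken from the dyes and is not stated for the deposited values, and the opposite direction would turn every sign. A ratio near 0 means equal signal in both channels, which also arises where neither RNA gives signal. Probes were averaged by gene symbol, which gave 21794 genes, and the number of arrays limits the precision of every difference.

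The mammary epithelium has a basal layer, which expresses keratins 5 and 14 and contractile proteins and holds most cells able to regenerate a gland on transplantation, and a luminal layer. Luminal progenitors belong to the luminal layer and are known for the receptor Kit, the transcription factor Elf5 and the aldehyde dehydrogenase Aldh1a3. Stratified squamous epithelia such as epidermis run a further programme, cornification, in which envelope proteins are crosslinked under the membrane, lipids are secreted and desmosomes are remodelled and then cut by kallikrein proteases. Many of the envelope proteins are encoded side by side in the epidermal differentiation complex, on chromosome 3 in the mouse.

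The arrays differed in range before any comparison was made. The standard deviation over probes was 1.19 to 1.26 on all arrays except LP control replicate 1, where it was 0.626. On LP control replicate 1, 73.5% of genes lay within 0.5 of a ratio of 0, against 47.4% on LP control replicate 2 and 46.8% and 44.2% on the MaSC control arrays. The slope of LP control replicate 1 on replicate 2 over genes was 0.41, and the correlation of these arrays over genes was 0.75, against 0.86 for the MaSC control arrays. Each difference below is MaSC control minus LP control with both LP arrays, followed for most genes by the difference from LP control replicate 2 alone. In the fit for that second value the lone LP array is assumed to vary like the other groups.

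Of all genes tested, 122 were higher in MaSC cells (0.56%) and 9 were lower (0.0413%) at a limma adjusted p below 0.05, 131 in either direction (0.601%). All 131 kept their direction against LP control replicate 2 alone, and on each of them both MaSC values lay more than 1 log2 unit beyond that array, above it for 122 (5.88% of all genes lay so) and below it for 9 (3.13%). The 131 genes were selected with the same MaSC arrays and LP replicate 2, so this agreement is partly built in and is no separate support. The median difference of the 122 genes was 3.47 with both LP arrays and 3.46 with LP replicate 2 alone, and that of the 9 genes was -1.49 and -1.51. With LP replicate 2 alone, 4 genes passed the threshold, all higher in MaSC (0.0184%), namely Dsg1a, Sprr1a, Il1f5 and Adipoq, and 0 were lower (0%). At an unadjusted p under 0.05 this fit held 1479 higher and 1173 lower genes, against 1486 and 1527 with both LP arrays, and 93 of the 122 genes had an adjusted p under 0.1. With only the 4 control arrays in the fit, 0 genes passed in either direction, so the calls rest on the spread shared with the IFNα arrays. Without either MaSC IFNα array 44 were higher and 0 lower, and without either LP IFNα array 35 and 0. The counts were 0 and 0 without either MaSC control array, and 228 and 140 without LP control replicate 2. Over all genes the median difference was -0.01 with both LP arrays and 0.01 with LP replicate 2 alone. On 62 of the 122 genes both LP values lay within 0.5 of 0. Of all genes, 73.5% lay there on LP replicate 1 and 47.4% on LP replicate 2. The share of all genes with both values there was not computed, so the 62 do not set the called genes apart.

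**Figure D1:**
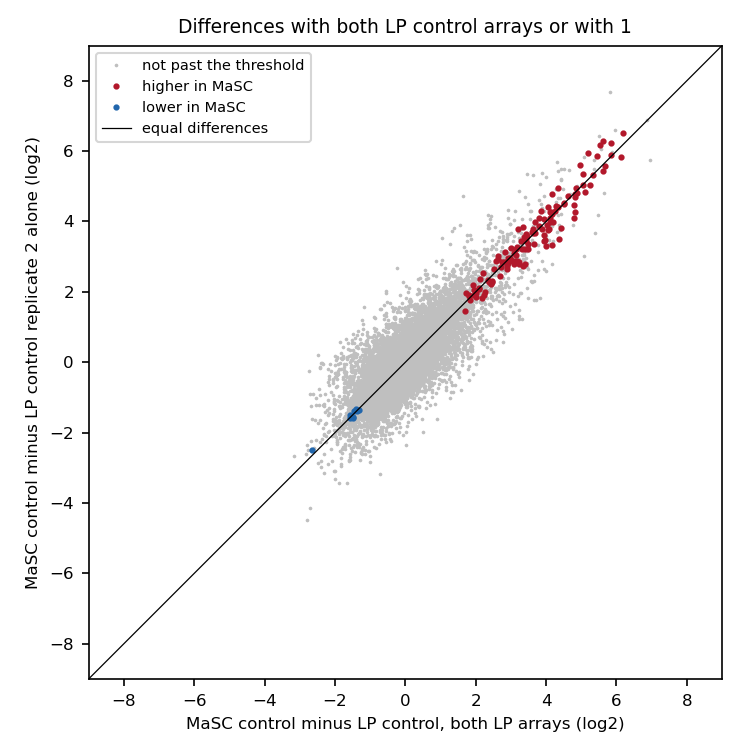
Each point is 1 of 21794 genes, with MaSC control minus LP control from both LP arrays on the x axis and from LP control replicate 2 alone on the y axis, both in log2 units. The 122 higher genes (red) and the 9 lower genes (blue) lie close to the line of equal differences, with medians of 3.47 and 3.46, and -1.49 and -1.51. Both axes share the MaSC arrays and LP control replicate 2, so closeness to the line is partly built in.

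The labels of the fractions were set against population markers. Of 22 basal and stem-cell-enriched genes, 3 were called higher in MaSC, against 0.56% of all genes, and 0 lower. In limma 14 were higher and 1 lower at an unadjusted p under 0.05. The list median was 1.42 with both LP arrays and 1.70 with LP replicate 2 alone. Differences ran from -1.94 to 4.83, and 19 of the 22 were positive, against 10749 of all 21794 genes. Krt5, the basal keratin, was 3.34 and 3.72 in MaSC control and 0.13 and -0.78 in LP control. The difference was 3.85 ± 0.41 (SE, adjusted p = 0.029), or 4.31 against LP replicate 2 (adjusted p = 0.055). Cdh3, P-cadherin of basal cells, was 5.16 and 6.12 in MaSC and 0.68 and 0.94 in LP. Its difference was 4.83 ± 0.41 (adjusted p = 0.017), or 4.70 against LP replicate 2. The groups did not overlap for either gene, as for 23.7% of all genes with higher values in MaSC. Lgr5, a Wnt-potentiating receptor of stem cells in several epithelia, differed by 2.18 (adjusted p = 0.046) and by 1.82 against LP replicate 2, but its 2 probes gave 0.20 and 4.16.

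Some other basal genes had higher values in MaSC than in LP on the deposited scale without passing. Not all of these lay above the reference. Krt14, the partner of Krt5, was 3.64 and 3.36 in MaSC and 2.35 and 2.72 in LP, a difference of 0.97 (adjusted p = 0.15) that turned to -0.04 with arrays scaled to 1 standard deviation and to -0.22 with quantile normalization. Snai2, a transcription factor of basal cells, was -0.14 and 1.38 in MaSC and -3.03 and -4.56 in LP, and Trp63, the master regulator of stratified epithelia, was 1.84 and 2.38 against 1.48 and 0.37. The adjusted p was 0.095 for Snai2 and 0.32 for Trp63, whose 4 probes ranged from -0.17 to 2.42. Of 15 myoepithelial contractile genes none passed in limma (6 higher and 1 lower at an unadjusted p under 0.05), with a list median of 0.56, and 1.33 against LP replicate 2 alone or 0.35 with scaled arrays. Acta2, smooth muscle actin, was -1.48 and -0.64 in MaSC and -3.43 and -3.62 in LP (adjusted p = 0.11). Myh11, smooth muscle myosin, was 2.13 and 2.03 in MaSC and -0.19 and -1.55 in LP (adjusted p = 0.091). On Snai2, Trp63, Acta2 and Myh11 the lowest value was that of LP replicate 2. Both MaSC values lay above both LP values, as on 23.7% of all genes. Apart from the fixed population genes, the naming rule took listed genes that did not pass only where the groups did not overlap. The separation is therefore partly built in and is no separate support. For Trp63 it holds for the average over probes and not for each probe.

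Of the genes that define luminal progenitors, none of 16 passed in either direction (0 higher and 2 lower at an unadjusted p under 0.05). Their median was 0.46 with both LP arrays, -0.02 with LP replicate 2 alone, -0.17 with scaled arrays and -0.38 with quantile normalization. The fractions did not overlap on 4 of the 16, 2 with higher and 2 with lower values in MaSC. Of all genes, 23.7% lay so with higher and 22.7% with lower values, so these counts do not set the list apart. Kit was 7.56 and 8.22 in MaSC and 3.66 and 7.72 in LP, and Elf5 was 6.03 and 6.28 in MaSC and 3.58 and 5.56 in LP. Aldh1a3 was 6.83 and 7.49 in MaSC and 3.93 and 6.49 in LP. All 3 were far above the reference in both fractions, and against LP replicate 2 alone their differences were 0.17, 0.59 and 0.67, with adjusted p of 0.92, 0.66 and 0.62. Slc12a2, a sodium-potassium-chloride cotransporter, and Cd14, a lipopolysaccharide co-receptor, had lower values in MaSC. Slc12a2 was 1.24 and 1.20 in MaSC and 2.26 and 2.54 in LP (difference -1.18, adjusted p = 0.074; -1.32 against LP replicate 2). Cd14 was 1.58 and -0.04 in MaSC and 2.97 and 2.43 in LP (difference -1.93, adjusted p = 0.35), with a difference of -1.66 against LP replicate 2.

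Of 16 luminal genes none passed (1 higher and 2 lower at an unadjusted p under 0.05). Their median was 0.10, and -0.20 against LP replicate 2, -0.88 with scaled arrays and -0.97 with quantile normalization. Krt8, the simple keratin of luminal cells, was 2.11 and 1.01 in MaSC and 2.40 and 2.58 in LP, and Gata3, the luminal transcription factor, was 1.81 and 1.51 against 2.18 and 2.42. Their differences were -0.92 (adjusted p = 0.40) and -0.64 (adjusted p = 0.34), and -1.02 and -0.76 against LP replicate 2. Epcam was 3.22 and 3.43 in MaSC and 2.88 and 3.38 in LP, a difference of 0.20 that became -0.05 against LP replicate 2, -1.03 with scaled arrays and -1.04 with quantile normalization. Transcripts of the surface proteins named in the titles were not called higher in MaSC. Itgb1, which encodes CD29, was 0.51 and -0.18 in MaSC and 0.78 and 0.77 in LP (difference -0.61, adjusted p = 0.50), and Cd24a was 2.52 and 2.26 against 2.98 and 3.08 (difference -0.64, adjusted p = 0.27). The titles of both fractions give the surface phenotype CD24+CD29hi, while the source and characteristics separate them, and the labels do not say whether sorting came before or after culture. Of 12 hormone-sensing luminal genes 1 passed, Ly6d, a surface protein, at 3.88 and 4.49 in MaSC and 0.44 and 0.98 in LP (difference 3.48, adjusted p = 0.024; 3.20 against LP replicate 2). Esr1, the estrogen receptor, was -0.85 and -0.60 in MaSC and -0.30 and -0.12 in LP (adjusted p = 0.40; the difference of -0.51 was 0.12 for its brightest probe). Of 15 milk protein and secretory genes 0 passed, with 1 higher and 0 lower at an unadjusted p under 0.05.

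**Figure D2:**
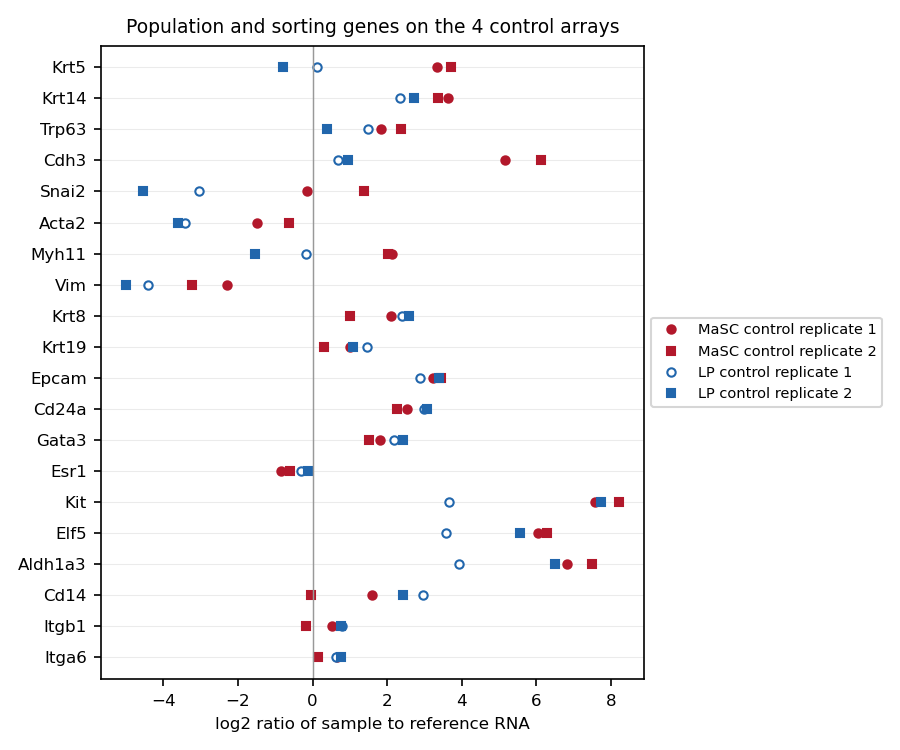
Log2 ratio of sample to reference RNA for 20 population and sorting genes on the 2 MaSC control arrays (red) and the 2 LP control arrays (blue, replicate 1 open). Krt5 and Cdh3 are separated between the fractions, at 3.34 to 6.12 in MaSC and -0.78 to 0.94 in LP, while Kit, Elf5 and Aldh1a3 are at 3.58 or more on all 4 arrays.

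Of the 40 gene lists, cornified envelope genes held the most genes called higher in MaSC. Of 50 measured genes of the epidermal differentiation complex, 15 were called higher (30.0%, against 0.56% of all genes) and 0 lower. Their median difference was 2.90 with both LP arrays and 2.64 with LP replicate 2 alone, and 35 of the 50 had both MaSC values more than 1 above both LP values, against 2.96% of all genes. The 250 bases before the start of 3 envelope genes of the complex, all on the minus strand, are shown because their differences passed. They are taken from RefSeq on GRCm38.p6, at chr3:92438780-92439029 for Sprr1b, chr3:92485882-92486131 for Sprr1a and chr3:92573736-92573985 for Ivl. Capitals mark TATAAA on the given strand and TGACTCA or its reverse complement TGAGTCA, the AP-1 motif, on either strand.
Sprr1b: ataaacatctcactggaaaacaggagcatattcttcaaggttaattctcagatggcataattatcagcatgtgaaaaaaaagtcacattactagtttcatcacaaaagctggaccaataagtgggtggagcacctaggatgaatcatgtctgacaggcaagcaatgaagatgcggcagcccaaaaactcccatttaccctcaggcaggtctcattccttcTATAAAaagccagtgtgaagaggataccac
Sprr1a: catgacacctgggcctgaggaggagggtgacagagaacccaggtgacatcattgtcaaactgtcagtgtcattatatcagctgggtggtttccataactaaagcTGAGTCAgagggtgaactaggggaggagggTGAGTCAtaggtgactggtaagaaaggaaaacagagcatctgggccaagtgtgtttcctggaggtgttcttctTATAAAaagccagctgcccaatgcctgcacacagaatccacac
Ivl: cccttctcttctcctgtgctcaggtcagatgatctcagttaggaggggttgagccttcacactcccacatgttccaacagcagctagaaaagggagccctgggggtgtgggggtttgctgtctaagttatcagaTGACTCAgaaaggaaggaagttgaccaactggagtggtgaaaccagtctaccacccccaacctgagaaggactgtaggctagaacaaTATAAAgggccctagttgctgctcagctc
Positions are counted back from the start site, the base before it being -1. TATAAA begins at -30 in Sprr1b, -43 in Sprr1a and -29 in Ivl, and the AP-1 motif begins at -146 and -116 in Sprr1a and at -116 in Ivl. Sprr1b holds no AP-1 motif in this window. Of 46 windows of 43 genes of the complex, 10 hold the AP-1 motif (21.7%) and 19 hold TATAAA (41.3%), against 4.46% and 7.59% of all 32851 windows. A match is a description of letters, not a bound site.

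Sprr1b, a small proline-rich precursor of the cornified envelope, was 5.62 and 5.83 in MaSC and -0.02 and 0.15 in LP. The difference was 5.66 ± 0.49 (adjusted p = 0.017), and 5.58 against LP replicate 2 (adjusted p = 0.071). Sprr1a, its neighbour, was 2.95 and 3.42 in MaSC and -1.23 and -2.77 in LP, with a difference of 5.18 (adjusted p = 0.023) and of 5.95 against LP replicate 2 (adjusted p = 0.044). Both genes had MaSC values far above the reference and LP values near or below it. Flg, which encodes profilaggrin, the keratin-bundling protein of the granular layer, was 4.61 and 5.40 in MaSC and 0.04 and -1.28 in LP (difference 5.62, adjusted p = 0.038; 6.28 against LP replicate 2). Kprp, a proline-rich keratinocyte protein, was 4.49 and 5.41 in MaSC and 0.09 and -1.24 in LP (difference 5.52, adjusted p = 0.023; 6.18 against LP replicate 2). Ivl, involucrin, was singled out after its values were seen because its promoter is printed; it was 3.16 and 3.68 in MaSC and 0.07 and -0.10 in LP (difference 3.43, adjusted p = 0.040; 3.52 against LP replicate 2).

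The called genes were spread over several families of the complex. All 5 late cornified envelope genes of the Lce3 group passed, with differences of 2.92 to 4.82 and medians of 3.49 and 3.37 against LP replicate 2. Lce3a was 4.96 and 5.31 in MaSC and -0.24 and 0.88 in LP, and Lce3f was 3.99 and 4.72 against 0.07 and -0.05. Of 13 Lce1 genes 2 passed, although all 13 had positive differences (1.29 to 3.80, median 2.82), against 10749 of all 21794 genes. The 6 S100-fused proteins, large calcium-binding proteins such as profilaggrin, had a median of 4.18 and 3 of them passed. None of the 9 Sprr2 genes in the list passed (5 at an unadjusted p under 0.05), with a median of 1.85 and differences of -0.02 to 4.28, and none of its 5 S100 genes (2 at an unadjusted p under 0.05), with a median of 1.83. S100a9, a calcium-binding protein of neutrophils and stressed epithelium, was 4.95 and 5.04 in MaSC and 0.16 and 2.52 in LP (adjusted p = 0.12). Sprr2a2, a further Sprr2 gene that the list does not hold, was called higher, at 1.453 and 1.496 in MaSC and -0.40 and -0.90 in LP (difference 2.13, adjusted p = 0.030; 2.38 against LP replicate 2); it was added after its values were seen. The lowest difference in the list was -1.56. Lce and Sprr2 genes are close copies, and how far their probes detect each other was not analysed here.

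**Figure D3:**
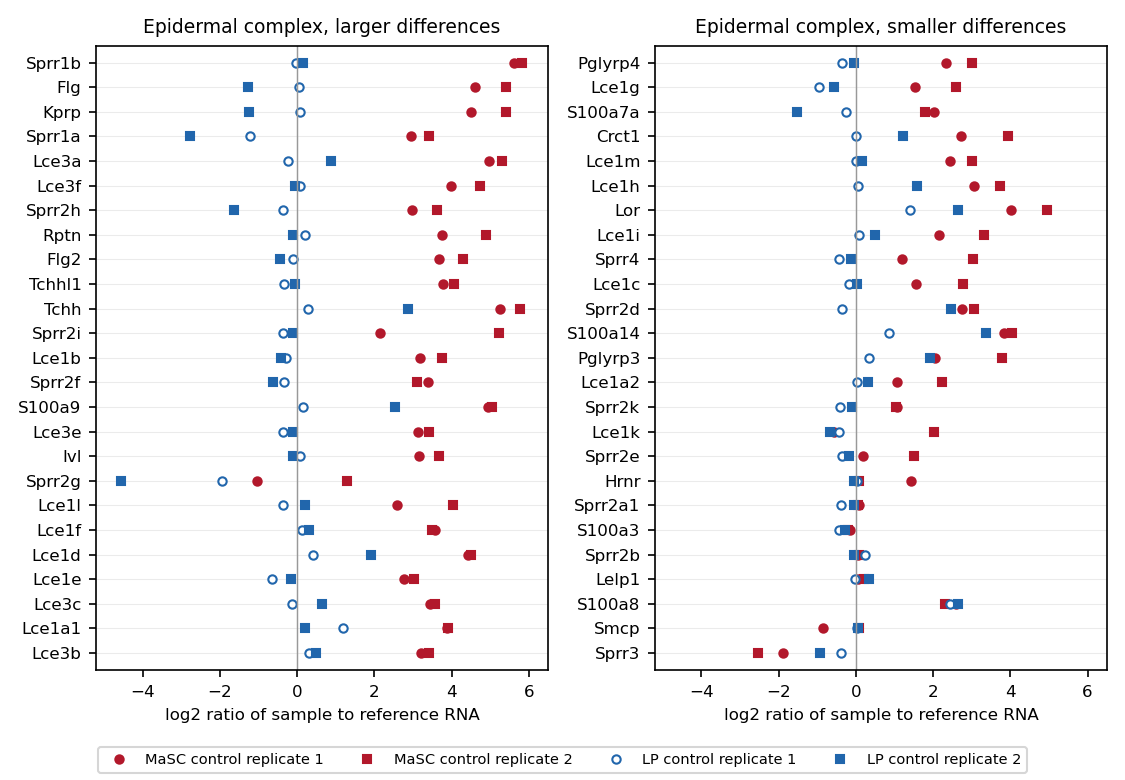
Log2 ratio of sample to reference RNA for the 50 measured genes of the epidermal differentiation complex, ordered by difference, on the 2 MaSC control arrays (red) and the 2 LP control arrays (blue, replicate 1 open). Sprr1b lies at 5.62 and 5.83 in MaSC and -0.02 and 0.15 in LP, while the last 5 genes have differences between -1.56 and -0.02.

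Called genes of the same programme also lay outside the complex. Of 16 late keratinocyte genes 4 were called higher, against 0.56% of all genes, with medians of 2.98 and 2.28 against LP replicate 2. Il1f5, the interleukin-36 receptor antagonist, was 4.88 and 5.04 in MaSC and -0.12 and -0.07 in LP. Its difference was 5.06 ± 0.21 (adjusted p = 0.0039), and 5.03 against LP replicate 2 (adjusted p = 0.044), with its 2 probes at 3.90 and 6.22. Krtdap, a keratinocyte differentiation-associated protein, differed by 4.19 (adjusted p = 0.030), Cnfn, cornifelin, by 3.46 (adjusted p = 0.011) and Dmkn, dermokine, by 2.90 (adjusted p = 0.026). Against LP replicate 2 the values were 3.99, 3.59 and 2.66. These 4 genes encode secreted or envelope proteins of the upper epidermis.

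Of 17 desmosome genes 3 were called higher, against 0.56% of all genes. Their list had medians of 1.58, 0.84 against LP replicate 2, 0.61 with scaled arrays and 0.57 with quantile normalization. Dsg1a, a desmoglein of differentiated keratinocytes, was 5.32 and 5.44 in MaSC and -0.43 and -0.06 in LP. Its difference of 5.63 ± 0.23 (adjusted p = 0.0039) was 5.44 against LP replicate 2 (adjusted p = 0.044). Cdsn, corneodesmosin, which glues corneocytes together, was 2.73 and 4.24 in MaSC and -1.98 and -2.74 in LP (difference 5.84, adjusted p = 0.036; 6.22 against LP replicate 2). Dsg1b differed by 3.37 (adjusted p = 0.017; 3.57 against LP replicate 2). Dsc1, a desmocollin, was 3.07 and 5.82 in MaSC and -0.14 and -0.06 in LP, and with this spread did not pass (adjusted p = 0.15).

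Of 17 kallikreins and their inhibitors 3 were called higher, against 0.56% of all genes, with medians of 1.43 and 0.85. All 17 had positive differences, against 10749 of all 21794 genes. Klk5, a protease that starts the shedding cascade, was 4.08 and 4.84 in MaSC and -0.05 and -0.26 in LP (difference 4.61, adjusted p = 0.011; 4.72 against LP replicate 2). Klk13 differed by 4.12 (adjusted p = 0.011; 4.10 against LP replicate 2). Spink12, a Kazal-type protease inhibitor, was 5.28 and 6.25 in MaSC and 0.75 and -0.10 in LP (difference 5.44, adjusted p = 0.013; 5.87 against LP replicate 2). Of 19 barrier lipid and crosslinking genes 1 passed, Abca12, which loads lipids into lamellar granules, at 3.26 and 4.57 in MaSC and 0.00 and -0.36 in LP (difference 4.10, adjusted p = 0.033; 4.28 against LP replicate 2). All 19 had positive differences, against 10749 of all 21794 genes, with medians of 1.61 and 1.23. Elovl4, which makes very long chain fatty acids, was 5.03 and 5.44 in MaSC and -0.13 and 0.21 in LP and did not pass (adjusted p = 0.054).

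Of 23 epithelial transcription factors 1 passed, Hopx, a homeodomain-only protein, at 2.75 and 3.27 in MaSC and -0.46 and -0.77 in LP (difference 3.62, adjusted p = 0.011; 3.78 against LP replicate 2). Grhl1, a regulator of epidermal desmosome genes, was 4.72 and 5.90 in MaSC and 2.30 and 4.00 in LP (adjusted p = 0.27). None of the 15 other keratins in the list passed, with 6 higher and 0 lower at an unadjusted p under 0.05. Krt90, a keratin gene that the list does not hold and that was added after its values were seen, was called higher. It was 4.24 and 4.01 in MaSC and 0.03 and -0.09 in LP (difference 4.16, adjusted p = 0.0055; 4.22 against LP replicate 2). Krt6b, a keratin of wounded and appendage epithelium, was 3.98 and 4.11 in MaSC and 0.09 and 1.83 in LP (adjusted p = 0.097), and Krt1, of suprabasal epidermis, was 0.70 and 2.52 against 0.22 and -0.45 (adjusted p = 0.36). In the p53 family list 2 of 10 were called higher, against 0.56% of all genes. Trp73 differed by 1.83 (adjusted p = 0.021) with 3 probes between -0.18 and 5.43, and Igfbp3, an insulin-like growth factor binding protein, by 1.82 (adjusted p = 0.030). Against LP replicate 2 these were 1.76 and 1.88.

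Some markers of cells that are not epithelial were also called higher in MaSC. In bulk RNA, fewer cells of a type and less RNA per cell cannot be told apart, and this holds for every list here. Of 24 endothelial and mural genes 5 were called higher, against 0.56% of all genes, with medians of 1.72 and 1.81 against LP replicate 2. The mean of the list was 1.73 and 1.61 in MaSC and -0.16 and -0.36 in LP. Cdh5, the cadherin of endothelial junctions, had the largest difference of all genes past the threshold, at 5.56 and 4.97 in MaSC and -0.57 and -1.25 in LP. Its difference was 6.17 ± 0.39 (adjusted p = 0.011), and 6.52 against LP replicate 2 (adjusted p = 0.052). Robo4 and Emcn, endothelial surface proteins, differed by 4.98 (adjusted p = 0.026) and 4.13 (adjusted p = 0.011), Sox18, an endothelial transcription factor, by 3.87 (adjusted p = 0.038) and Kdr, a VEGF receptor, by 2.25 (adjusted p = 0.036). Against LP replicate 2, Robo4, Emcn, Sox18 and Kdr differed by 5.59, 4.27, 3.78 and 1.91. The 2 probes of Kdr gave -0.07 and 4.57. Pecam1, a defining endothelial marker singled out after its values were seen, was -0.50 and -0.88 in MaSC and -0.06 and -0.64 in LP (adjusted p = 0.68), with overlapping groups.

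Of 15 adipocyte genes 3 were called higher, against 0.56% of all genes. The list had medians of 1.69 and 1.90 and a mean of 1.64 and 1.84 in MaSC and -0.15 and -0.43 in LP. Fabp4, the fatty acid carrier of adipocytes and capillaries, was 4.86 and 5.09 in MaSC and -0.38 and -0.34 in LP (difference 5.33, adjusted p = 0.011; 5.32 against LP replicate 2). Adipoq, adiponectin, was 3.71 and 3.74 in MaSC and 0.15 and -1.06 in LP, with a difference of 4.18 (adjusted p = 0.023) and of 4.79 against LP replicate 2 (adjusted p = 0.044). Lpl, lipoprotein lipase, differed by 1.82 (adjusted p = 0.038; 1.90 against LP replicate 2). Of the other defining markers, Pparg was -0.76 and -0.38 in MaSC and -0.52 and -1.50 in LP, and Lep was 0.12 and 0.08 against 0.25 and -0.24, both chosen after their values were seen.

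Of 18 fibroblast and matrix genes 1 was called higher, and the list mean was -0.29 and -0.88 in MaSC and -1.68 and -2.58 in LP. Dcn, the proteoglycan decorin, was -0.30 and -0.36 in MaSC and -2.99 and -2.54 in LP (difference 2.44, adjusted p = 0.033; 2.21 against LP replicate 2). Pdgfrb, a growth factor receptor of mesenchymal and mural cells, was 1.02 and -0.05 in MaSC and -2.84 and -3.17 in LP (adjusted p = 0.092), and Col1a1 was -1.28 and -3.22 against -4.24 and -5.00 (adjusted p = 0.38). The reference holds cell lines, and most fibroblast genes were below it in both fractions. Of 15 epithelial-mesenchymal transition genes none passed (6 higher and 0 lower at an unadjusted p under 0.05), with medians of 1.12, 1.91 against LP replicate 2 and 1.83 with scaled arrays, and Vim, vimentin, was -2.30 and -3.22 in MaSC and -4.42 and -5.00 in LP (adjusted p = 0.23). None of 26 leukocyte genes passed (0 higher and 2 lower at an unadjusted p under 0.05), and their mean was -1.52 and -1.52 in MaSC and -0.73 and -1.75 in LP. None of 10 red cell genes and none of 10 Schwann and neuronal genes passed, with 1 higher and 1 lower, and 3 higher and 0 lower, at an unadjusted p under 0.05. The part of endothelial, adipocyte and fibroblast RNA in the differences of epithelial genes was not tested.

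**Figure D4:**
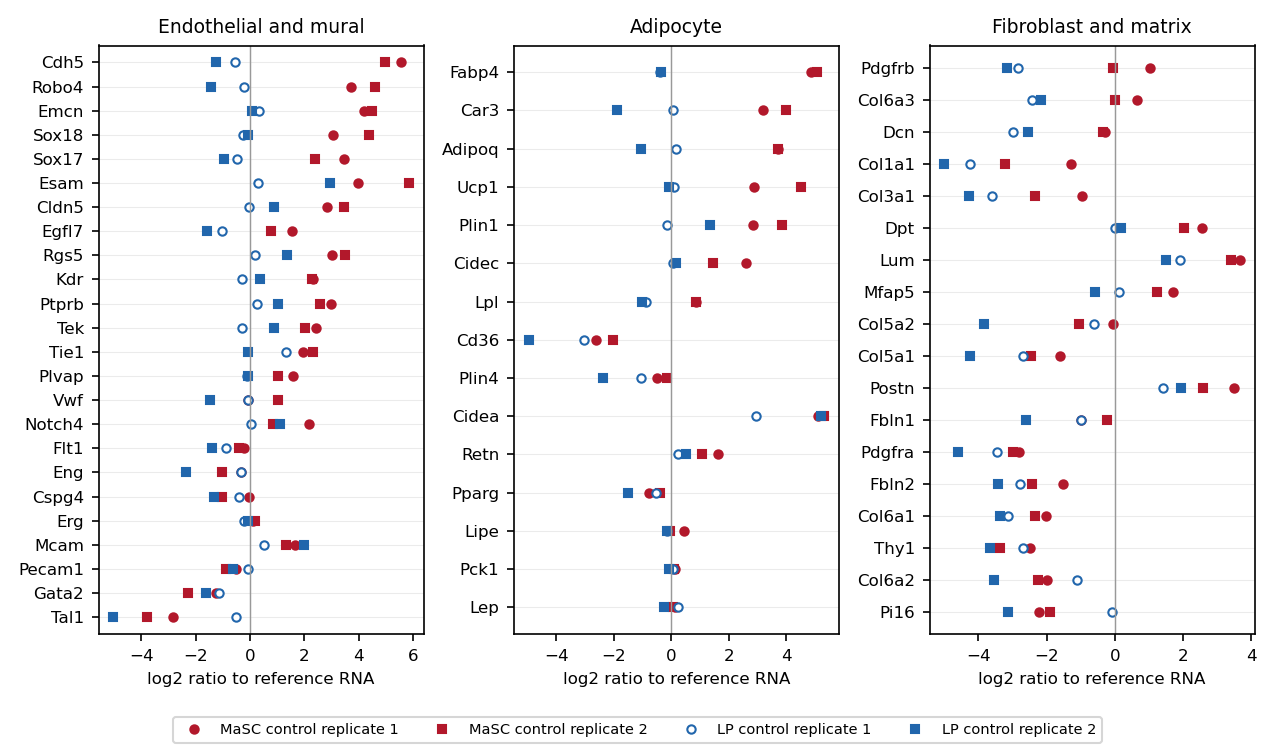
Log2 ratio of sample to reference RNA for the endothelial and mural, adipocyte, and fibroblast lists on the 2 MaSC control arrays (red) and the 2 LP control arrays (blue, replicate 1 open), ordered by difference. The list means in MaSC and LP are 1.73 and 1.61 against -0.16 and -0.36, 1.64 and 1.84 against -0.15 and -0.43, and -0.29 and -0.88 against -1.68 and -2.58, in the order of the panels.

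Matrix and signalling genes contributed individual calls. Of 21 laminin, integrin and basement membrane genes 1 passed, Col17a1, the hemidesmosome collagen of basal keratinocytes, at 5.10 and 5.21 in MaSC and -0.37 and 1.06 in LP (difference 4.80, adjusted p = 0.033; 4.09 against LP replicate 2). Of 21 matrix metalloproteases and inhibitors 1 passed, Mmp3, stromelysin, at 3.30 and 3.39 in MaSC and 1.01 and 1.01 in LP (difference 2.34, adjusted p = 0.018; 2.33 against LP replicate 2). Both genes had MaSC values above LP on all arrays, as 23.7% of all genes did, and being called makes this likely.

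Of 42 Wnt genes 3 were called higher, against 0.56% of all genes, Lgr5 among them. Fzd10, a Wnt receptor, was 5.51 and 4.38 in MaSC and -0.51 and -0.10 in LP (difference 5.25, adjusted p = 0.012; 5.04 against LP replicate 2), and Wnt10a, a ligand of skin and its appendages, was -1.06 and -0.41 against -3.27 and -3.86 (difference 2.83, adjusted p = 0.038; 3.12 against LP replicate 2). Of 20 Notch genes 2 were called higher, against the same 0.56%. Jag1, a Notch ligand, was 3.13 and 2.96 in MaSC and 0.63 and 0.40 in LP (difference 2.53, adjusted p = 0.018). Heyl, a Notch target, was 4.60 and 5.05 against -0.31 and 0.36 (difference 4.80, adjusted p = 0.038). Against LP replicate 2 the differences of Jag1 and Heyl were 2.64 and 4.47. Nrarp, a feedback inhibitor of Notch, was 6.45 and 7.63 in MaSC and -0.08 and 3.37 in LP and did not pass (adjusted p = 0.14), its LP arrays lying far apart. Of 28 TGF-beta and BMP genes 1 passed, Fst, the activin antagonist follistatin, at 2.18 and 2.18 in MaSC and 0.32 and -0.34 in LP (difference 2.20, adjusted p = 0.041; 2.53 against LP replicate 2). The list medians were 0.25 for Wnt, 0.26 for Notch and 0.07 for TGF-beta and BMP, and 0.15, 0.29 and -0.12 with scaled arrays, in the same order.

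Of 31 cytokine and chemokine genes 1 passed, Ccl2, a monocyte chemoattractant, at 0.30 and 0.06 in MaSC and -2.13 and -2.76 in LP (difference 2.63, adjusted p = 0.038; 2.94 against LP replicate 2). At an unadjusted p under 0.05 the cytokine list held 9 higher and 2 lower genes. Its differences ran from -2.81 to 4.89, with medians of 0.50 and 0.24 against LP replicate 2. None of 20 defence genes passed, with 5 higher and 1 lower at an unadjusted p under 0.05. Defb1, a beta-defensin, was 5.72 and 7.92 in MaSC and -0.03 and -0.06 in LP, a difference of 6.87 that did not pass at this spread (adjusted p = 0.076; 6.88 against LP replicate 2). None of 46 interferon-stimulated genes passed (1 higher and 9 lower at an unadjusted p under 0.05), although their median was -0.49 with both LP arrays, against 0.00 with LP replicate 2 alone and -0.22 with scaled arrays. Zbp1, an interferon-induced nucleic acid sensor, was -2.00 and -1.99 in MaSC and -0.27 and -0.63 in LP (adjusted p = 0.083), and Ifit2 was -2.10 and -2.23 against -0.50 and -0.98 (adjusted p = 0.13). Their differences were -1.54 and -1.42, and -1.36 and -1.18 against LP replicate 2.

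In the retinoid list 1 of 19 passed, Lrat, the enzyme that stores retinol as esters, at 4.80 and 6.81 in MaSC and 0.00 and -0.09 in LP (difference 5.85, adjusted p = 0.030; 5.89 against LP replicate 2). Another 3 of the 15 largest called differences lay outside the lists. Prl8a9, a prolactin-family hormone of the placenta, was 6.18 and 6.98 in MaSC and 0.14 and 0.73 in LP (difference 6.14, adjusted p = 0.011; 5.84 against LP replicate 2). Cyp1a1, a target of the aryl hydrocarbon receptor, was 4.35 and 4.79 in MaSC and -0.16 and -0.78 in LP (difference 5.04, adjusted p = 0.026). Aldh3b2, a fatty aldehyde dehydrogenase, differed by 5.11 (adjusted p = 0.018) with its 2 probes at 4.97 and 5.26. Against LP replicate 2 the differences of Cyp1a1 and Aldh3b2 were 5.35 and 4.83. Of 29 hypoxia and glycolysis genes 1 passed, Car12, a carbonic anhydrase, with a difference of 3.33 (adjusted p = 0.0498), or 3.85 against LP replicate 2. Most of that list went the other way, with 8 of 29 differences positive and a median of -0.29. Against LP replicate 2 the median was 0.05, with 15 positive. In limma 2 of its genes were higher and 2 lower at an unadjusted p under 0.05. None passed among 29 mitotic, 32 replication, 27 stress, 21 lipid synthesis, 23 ribosomal protein and 22 respiratory chain genes, and their medians lay between -0.04 and 0.43, or -0.04 and 0.47 against LP replicate 2. At an unadjusted p under 0.05 these lists held 2, 2, 6, 1, 0 and 0 higher and 0, 0, 0, 1, 0 and 1 lower genes, in that order. Scd1, a fatty acid desaturase, was 2.51 and 2.45 in MaSC and 3.71 and 3.68 in LP (difference -1.21, adjusted p = 0.056).

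**Figure D5:**
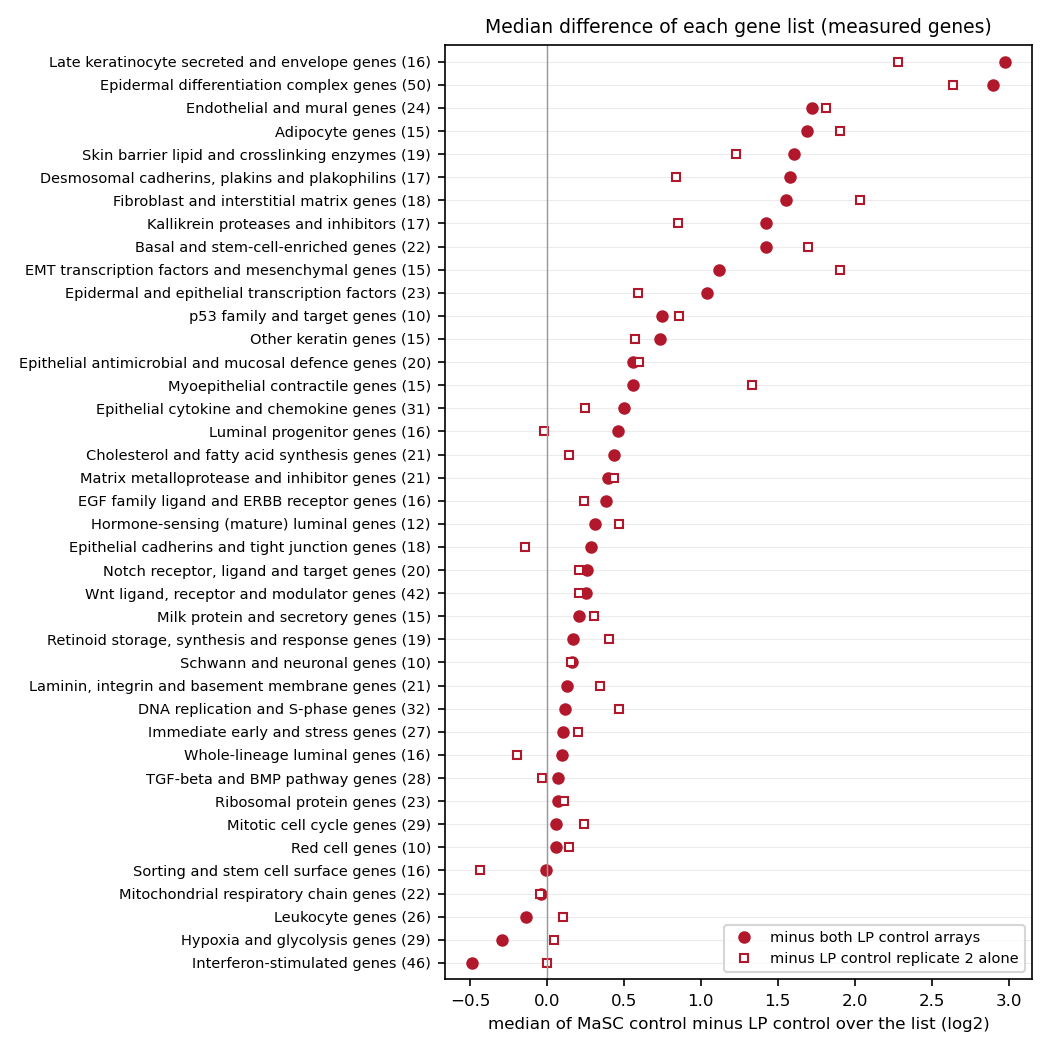
Median of MaSC control minus LP control over the measured genes of each of 40 lists (number in brackets), with both LP arrays (filled circles) and with LP control replicate 2 alone (open squares), in log2 units. Late keratinocyte and epidermal complex genes are at 2.98 and 2.90, and interferon-stimulated genes at -0.49 with both LP arrays and 0.00 with replicate 2 alone.

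The genes lower in MaSC were few and their differences smaller, from -2.66 to -1.32, and none of the 9 was in a list. Cant1, a calcium-activated nucleotidase, was -3.31 and -2.50 in MaSC and -0.10 and -0.41 in LP (difference -2.66, adjusted p = 0.033; -2.50 against LP replicate 2). Slc43a2, an amino acid transporter, was 0.35 and 0.10 in MaSC and 1.76 and 1.82 in LP (difference -1.56, adjusted p = 0.038; -1.59 against LP replicate 2). Tkt, transketolase of the pentose phosphate pathway, was -0.30 and -0.56 in MaSC and 0.86 and 0.93 in LP (difference -1.32, adjusted p = 0.0498; -1.35 against LP replicate 2). On none of these genes did the fractions overlap, which the naming rule required of them. Of all genes, 22.7% lay so with lower values in MaSC. Npat, a coactivator of histone gene transcription, was -1.69 and -1.75 in MaSC and -0.24 and -0.38 in LP (difference -1.41), and Adamts6, a secreted metalloprotease, was -1.70 and -1.44 against 0.08 and -0.06 (difference -1.58). Agfg2, Enpp5 and Ldlrad3 differed by -1.46, -1.37 and -1.50, and the remaining gene has only a gene-model name. Against LP replicate 2, Npat, Adamts6, Agfg2, Enpp5 and Ldlrad3 differed by -1.34, -1.51, -1.40, -1.39 and -1.57. Against LP replicate 2 alone the lowest adjusted p of the named lower genes was 0.11, for Cant1, and none of the 9 was under 0.1.

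The population difference was also measured on the arrays of IFNα-treated cells. Their values do not enter the control differences, but both comparisons share the spread of 1 fit and so their p-values are not independent. There, 99 genes were higher in MaSC IFNα than in LP IFNα (0.454%) and 11 lower (0.0505%). Of the 122 genes higher in MaSC controls, 120 had a positive difference with IFNα, 118 had MaSC IFNα arrays above LP IFNα arrays (21.7% of all genes did) and 79 passed. Of the 9 lower genes, 8 had a negative difference, 8 did not overlap (28.6% of all genes) and 4 passed. The medians with IFNα were 3.04 for the 122 genes and -1.46 for the 9. Sprr1b differed by 6.10 with IFNα (adjusted p = 0.023), Dsg1a by 4.27 (adjusted p = 0.0087), Krt5 by 3.70 (adjusted p = 0.034), Cdh5 by 3.39 (adjusted p = 0.035) and Fabp4 by 4.16 (adjusted p = 0.023). The epidermal complex had a median of 2.02 with IFNα and the endothelial list 1.99, and the LP genes -0.29.

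No gene passed the test of whether the population difference in controls is other than with IFNα. The lowest adjusted p of that limma interaction was 0.9997. Of 21794 genes, 931 had an unadjusted p under 0.05, a smaller share than 0.05 itself. The values of single genes below are therefore descriptions only. Among the called genes named above, Adamts6 had opposite signs. It was 0.10 and 0.09 in MaSC IFNα and -1.01 and -1.36 in LP IFNα, a difference of 1.28 (adjusted p = 0.071), against -1.58 in controls. Prl8a9 was 4.60 and 5.10 in MaSC IFNα and 3.23 and 2.51 in LP IFNα, a difference of 1.98 (adjusted p = 0.11), against 6.14 in controls. Il1a, an alarmin cytokine, was 5.17 and 4.74 in MaSC control and 0.18 and -0.05 in LP control, and 5.02 and 3.26 in MaSC IFNα and 4.82 and 3.26 in LP IFNα. With IFNα the fractions overlapped, with a difference of 0.10 (adjusted p = 0.99), against 4.89 in controls (adjusted p = 0.060).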

How the data were processed

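Two-colour Agilent arrays measured total RNA of 8 mouse mammary samples, 2 in each of 4 groups taken from the titles and characteristics. The submitters' processing notes name Agilent Feature Extraction 11.0. Per probe, the authors deposited a log ratio, used as log2 of Cy5 sample over Cy3 reference. Direction and base are not stated; the direction follows the dyes, and base 2 was taken because the values exceed what log10 of 16-bit signals allows, and another base would scale all differences without changing the tests. Normalization and centring are not given in the sources used here, array medians ran from -0.14 to 0.15, and intensities were not used, so signal over background is unknown.

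Of 55681 probes, 30626 had 1 gene symbol in the platform annotation and 25055 had none; the 30398 named ones without an empty value were averaged by symbol into 21794 genes (6730 with several probes). Another 99 genes, including Krt18, lacked a complete probe and were not tested. limma 3.58.1 in R 4.3.3 fitted 1 mean per group over all 8 arrays, with empirical Bayes moderation (4 residual and 1.98 prior degrees of freedom; 3 and 2.12 without LP control replicate 1). P-values are two-sided and Benjamini-Hochberg adjusted over all genes, with a threshold of 0.05. The fit was run on simulated arrays with independent errors of equal spread. These hold no array of compressed range such as LP control replicate 1, so the run does not cover that feature of the data.

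The comparison, its genes and 40 lists (884 genes, 818 measured, 20 with only incomplete probes, 46 unmatched) were chosen with earlier results of these data known. Lists are described by counts and medians and were not tested. Genes are named by this rule: the 15 largest called differences in each direction without gene-model names, up to 6 called members of each list and others to make 4 (those whose groups do not overlap, by their difference from LP control replicate 2), 16 fixed population genes, and the 5 largest called without LP control replicate 1. Of 29 named genes with several probes, 4 had probes of opposite sign (Esr1, Kdr, Trp63 and Trp73). Alternatives were leaving out each array, control arrays only, the replicate number as a block, scaling, quantile normalization, centring, the brightest probe, trended robust moderation, array weights and keeping probes with empty values.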

Additional observations from a re-analysis of the deposited data

Results flagged for a closer look

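Among the 24936 tested probes without a gene symbol, which no comparison above uses, 3 were higher in MaSC control than in LP control at a limma adjusted p below 0.05 (0.012%) and 0 were lower. Without LP control replicate 1 the count was 0 in each direction. A share of 0.012% is below the 0.56% of named genes called higher, but these are unlike measures. Probes without a symbol were tested singly, with a fit and adjustment of their own, and named probes as averages by symbol.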

How the results depend on the processing

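The counts of called genes depended on single arrays and on scale, while the direction of called named genes did not. Leaving out 1 array gave 0 to 228 genes higher in MaSC control and 0 to 140 lower, against 122 and 9. They were 0 and 0 without MaSC control replicate 1 or 2, 4 and 0 without LP control replicate 1, 228 and 140 without LP control replicate 2, 44 and 0 without either MaSC IFNα array, and 35 and 0 without either LP IFNα array. With the 4 control arrays only, 0 passed in each direction. Scaling each array to 1 standard deviation gave 200 higher genes, quantile normalization 190 higher and 17 lower, trended robust moderation 64 and 4, array weights 79 and 1, and the brightest probe 4 lower. Against LP control replicate 2 alone, scaling gave 82 higher and 1 lower and quantile normalization 27 higher, and 0 passed after leaving out any further array, with control arrays only, with centring, with the brightest probe or with trended robust moderation. With IFNα, leaving out 1 array gave 0 to 149 higher and 0 to 16 lower, against 99 and 11, trended robust moderation 65 higher, and array weights 220 and 49. The labels do not say that replicate numbers pair the samples. Same-numbered deviations correlated at -0.02 between MaSC control and LP control, 0.31 between MaSC control and MaSC IFNα, 0.11 between MaSC control and LP IFNα, and 0.03 to 0.07 in the other pairs of groups. With a replicate block, 115 genes were higher and 2 lower in controls, 0 and 0 against LP replicate 2 alone, and 52 and 2 with IFNα. The 54 named genes past the threshold gave 918 values over 17 settings, of which 439 stayed past it, 479 did not and 0 changed sign. Under scaling, the differences of Epcam, Cd74, Hba-a2 and Krt14 changed sign, to -1.025, 0.23, 0.33 and -0.035, and under quantile normalization to -1.04, 0.28, 0.28 and -0.22. Leaving out 1 array put Epcam between -0.048 and 0.45, the lowest without LP control replicate 1. Crb3 was -0.056 under quantile normalization and Esr1 0.12 with the brightest probe. Of 680 list medians, 635 moved by no more than the spread between replicates, which includes LP control replicate 1, and 45 by more. Leaving out an IFNα array, control arrays only, the replicate block, trended robust moderation and array weights cannot change a difference or a list median. Their values are counted among the 680 and the 918, where they could not move or change sign. In some setting 14 of the 40 lists changed sign, the luminal progenitor and luminal lists among them. Centring each array on its median put the median difference of all genes at -0.11, against -0.01, so differences under centring are lower by that shift. The cause of these shifts was not tested, and since intensities were not used, dim probes could not be set apart.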
